A study of Mus musculus with 4 samples.

Results

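Peroxiredoxins and the thioredoxin system were examined in mouse hair follicle stem cells (HFSCs) with and without the microRNA miR-205. The 10 genes considered were the peroxiredoxins Prdx1 to Prdx6, the thioredoxins Txn1 and Txn2, and the thioredoxin reductases Txnrd1 and Txnrd2. They were taken by gene family, and each gene was read from the probe set chosen by the highest mean over the 4 arrays, among probe sets that the platform annotation gives to that gene alone. 7 of the 10 genes had such a probe set, namely 3 peroxiredoxins and all 4 thioredoxins and reductases, among 18193 genes in all. Prdx1 was annotated only together with a second gene, and Prdx5 and Prdx6 were not analysed here. Prdx3 was singled out by its difference between the genotypes on these same arrays, and Txnrd1 was named beside it. The differences of both are therefore given as a description, with no test, and the question asked was whether the other members shared the pattern of Prdx3.

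The cells were sorted by flow cytometry from skin of C57BL/6 mice at postnatal day 4. 2 arrays carried RNA of miR-205 knockout (KO) HFSCs and 2 carried RNA of wild-type (WT) HFSCs, numbered 1 and 2 in each group as biological replicates. The labels name no allele, deleted segment or Cre driver, no sorting gate, and no number of mice per array. The treatment text attached to every sample describes another system, in which K14-rtTA and TRE-miR-203 transgenes with K14-H2BGFP were used with doxycycline, and it was not used for grouping. Since nothing says that replicates came from separate animals, a p-value here reflects the spread among these arrays, which may be technical.

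Xist, the RNA of the inactive X chromosome, was at 5.26 and 5.45 on the KO arrays and 13.28 and 13.19 on the WT arrays, in log2 values. The Y-linked gene Eif2s3y was at 9.59 and 9.57 on the KO arrays and 3.05 and 2.86 on the WT arrays. The genotypes thus cannot be told apart from this difference in sex-linked RNA in any comparison. The miR-205 host transcript Mir205hg was at 6.52 and 6.13 in KO and 5.81 and 5.30 in WT cells, and whether its probe set lies in the deleted part is not given in the labels. Of 8 HFSC markers, Krt15, Lhx2, Lgr5 and Sox9 were between 9.94 and 14.05 on every array and Nfatc1 and Tcf7l2 between 8.97 and 9.78, against a mean level of 6.88 for the median gene. Dio2 was between 6.20 and 6.50, and the surface marker Cd34 was between 6.20 and 8.32. Krt14, a keratin of basal keratinocytes, was between 13.54 and 13.73.

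Peroxiredoxins are enzymes that remove hydrogen peroxide with a reactive cysteine. The oxidised cysteine is reset by thioredoxin, a small protein with a pair of active-site cysteines, and thioredoxin is in turn reset by thioredoxin reductase, a selenoprotein that draws electrons from NADPH. The cytosol has its own set, with Prdx1, Prdx2, Txn1 and Txnrd1, and mitochondria have another, with Prdx3, Txn2 and Txnrd2. Prdx4 works in the endoplasmic reticulum. Txnrd1 and several other genes of this defence are known targets of NRF2, the transcription factor encoded by Nfe2l2 that skin cells use against oxidative and chemical stress.

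The deleted microRNA is shown first because its seed is what defines it as a regulator. In RefSeq (GRCm38.p6) the mature strand miR-205-5p lies at chr1:193507503-193507524 on the minus strand. Capitals mark the seed, bases 2 to 8.
miR-205-5p: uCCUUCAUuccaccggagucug

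The promoters of Prdx3 and Txnrd1 are shown because in these 2 members each KO array exceeded each WT array. Each window holds the 250 bases before a RefSeq start site in GRCm38.p6. The Prdx3 window is chr19:60874539-60874788 on the minus strand. The Txnrd1 window is the second of 3 annotated starts, chr10:82858956-82859205 on the plus strand. It alone of the 3 held a match to the element marked below. Capitals mark a match to the core of the antioxidant response element bound by NRF2, TGACNNNGC or GCNNNGTCA on the other strand.
Prdx3: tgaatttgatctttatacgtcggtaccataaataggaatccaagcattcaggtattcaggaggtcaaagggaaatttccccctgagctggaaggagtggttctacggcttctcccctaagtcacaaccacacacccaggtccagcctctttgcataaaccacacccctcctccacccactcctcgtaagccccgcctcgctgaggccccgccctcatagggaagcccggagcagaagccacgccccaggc
Txnrd1: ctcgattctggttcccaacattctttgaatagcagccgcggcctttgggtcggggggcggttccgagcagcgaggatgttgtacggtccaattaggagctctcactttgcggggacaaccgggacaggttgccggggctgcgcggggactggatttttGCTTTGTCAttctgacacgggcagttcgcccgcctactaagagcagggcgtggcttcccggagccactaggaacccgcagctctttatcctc

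The match of Txnrd1 begins 92 bases before the start, and the windows of its other 2 starts held none. The Prdx3 window held no match, and neither did those of Prdx2, Prdx4, Txn1, Txn2 and Txnrd2. Of 32851 RefSeq windows of the same length, 10.2% held the motif. The FOXO motif GTAAACA, which 3.2% of windows held on either strand, and the AP-1 motif TGANTCA, which 6.7% held, had no match before any start of the 7 measured members. A match is a stretch of letters and was not tested for binding.

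Prdx3, the peroxiredoxin of the mitochondrial matrix, was at 10.50 on KO 1, 10.49 on KO 2, 9.54 on WT 1 and 9.39 on WT 2. Both KO arrays were above both WT arrays, and the KO arrays lay closer to each other than the WT arrays did. The means were 10.50 ± 0.0015 for KO against 9.47 ± 0.11 for WT (SD, n = 2 each), a difference of 1.03, or 2.04-fold. It was 0.95 between the arrays numbered 1 and 1.11 between those numbered 2. Prdx3 is read by 1 probe set, 1416292_at, so no second probe set of the gene bears on this value.

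Txnrd1, the cytosolic thioredoxin reductase, was the other member that separated the groups. Its brightest probe set, 1421529_a_at, was at 11.29 on KO 1, 11.30 on KO 2, 10.71 on WT 1 and 10.73 on WT 2. The means were 11.29 ± 0.0085 for KO against 10.72 ± 0.013 for WT (SD, n = 2 each), a difference of 0.57 or 1.49-fold. The gap between the groups was thus many times the gap between arrays of a group, and it was 0.58 between the arrays numbered 1 and 0.57 between those numbered 2. The second probe set, 1424486_a_at, is dimmer and was at 6.40 and 6.36 on the KO arrays and 5.88 and 6.13 on the WT arrays. There too both KO arrays were above both WT arrays, with a difference of 0.37. The third, 1424487_x_at, was dimmest, at 4.44 and 4.58 in KO and 4.44 and 4.35 in WT cells. KO 1 and WT 1 had the same value on it, and the difference was 0.11. All 3 probe sets thus had a higher mean in KO cells, by amounts that differed with their brightness, and the deposited values do not show which transcripts each one reads.

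**Figure D1:**
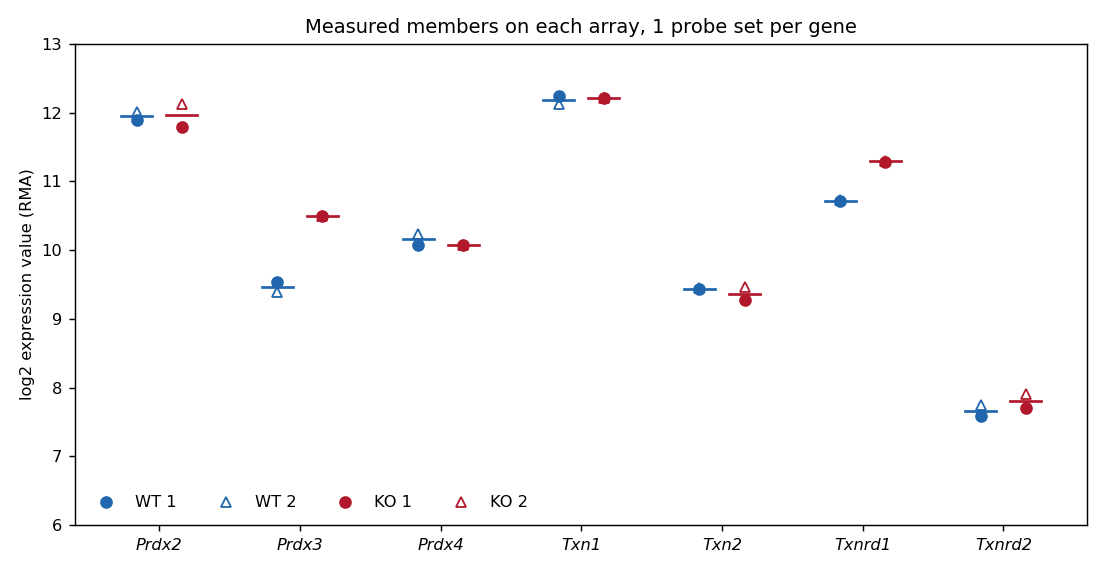
Log2 expression values (vertical axis) of the 7 measured members on each array, with WT in blue and KO in red, circles for arrays numbered 1, triangles for arrays numbered 2 and bars for the group means (n = 2). Prdx3 (10.50 and 10.49 in KO against 9.54 and 9.39 in WT) and Txnrd1 (11.29 and 11.30 against 10.71 and 10.73) have separate groups, and the other 5 genes overlap; levels of different genes are not comparable on this axis.

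The mitochondrial partners of Prdx3 had smaller differences. Txn2, the mitochondrial thioredoxin, was at 9.28 on KO 1, 9.46 on KO 2, 9.43 on WT 1 and 9.44 on WT 2. The WT arrays lay between the KO arrays. The difference was -0.07 (SE 0.08, 95% interval -0.33 to 0.20), and it did not pass (limma adjusted p = 1). The 2 other probe sets of Txn2 differed by -0.06 and -0.09. Txnrd2, the mitochondrial reductase, was at 7.70 on KO 1, 7.90 on KO 2, 7.59 on WT 1 and 7.74 on WT 2. KO 1 lay below WT 2, so the groups overlapped, while within each number the KO array was higher, by 0.11 and 0.16. The difference was 0.14 (SE 0.11, 95% interval -0.20 to 0.47) and did not pass (limma adjusted p = 1). The 3 dimmer probe sets of Txnrd2 differed by 0.21, -0.05 and 0.00, the last having the value 5.34 on all 4 arrays. No test set the difference of 1 gene against that of another.

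The cytosolic partners of Txnrd1 likewise overlapped between the groups. Txn1, the cytosolic thioredoxin, was at 12.21 on both KO arrays, 12.24 on WT 1 and 12.13 on WT 2. The difference was 0.03 (SE 0.06, 95% interval -0.15 to 0.21), which did not pass (limma adjusted p = 1), and the dimmer probe set differed by 0.02. The values of Txn1 thus lay close together on all 4 arrays. Prdx2, a cytosolic peroxiredoxin, was at 11.79 on KO 1, 12.13 on KO 2, 11.90 on WT 1 and 12.01 on WT 2. The KO arrays lay outside the WT arrays on both sides. The difference was 0.01 (SE 0.15, 95% interval -0.45 to 0.48) and did not pass (limma adjusted p = 1).

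The second probe set of Prdx2 gave another picture from the first. Probe set 1430979_a_at was at 9.41 on KO 1, 8.95 on KO 2, 9.45 on WT 1 and 9.85 on WT 2. Both KO arrays were below both WT arrays, by 0.04 between the arrays numbered 1 and 0.90 between those numbered 2. The difference of the means was -0.47, opposite in sign to that of the brighter probe set. The gap thus came mainly from the arrays numbered 2, and the 2 probe sets do not settle a direction for Prdx2.

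Prdx4, the peroxiredoxin of the endoplasmic reticulum, is X-linked and is read here beside the difference in Xist given above. Its brightest probe set was at 10.08 on both KO arrays and WT 1, to 4 decimals the same value, and at 10.24 on WT 2. The difference was -0.08 (SE 0.07, 95% interval -0.31 to 0.15) and did not pass (limma adjusted p = 1). Its 3 other probe sets had differences of -0.29, -0.21 and -0.0043, with overlapping groups in each. All 4 probe sets of Prdx4 thus had a lower mean in KO cells, with no separation of the arrays. The difference of the brightest came from WT 2 alone, and the probe set at -0.0043 was dim, with a mean level of 3.30. The part of sex-linked expression in these values was not tested.

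**Figure D2:**
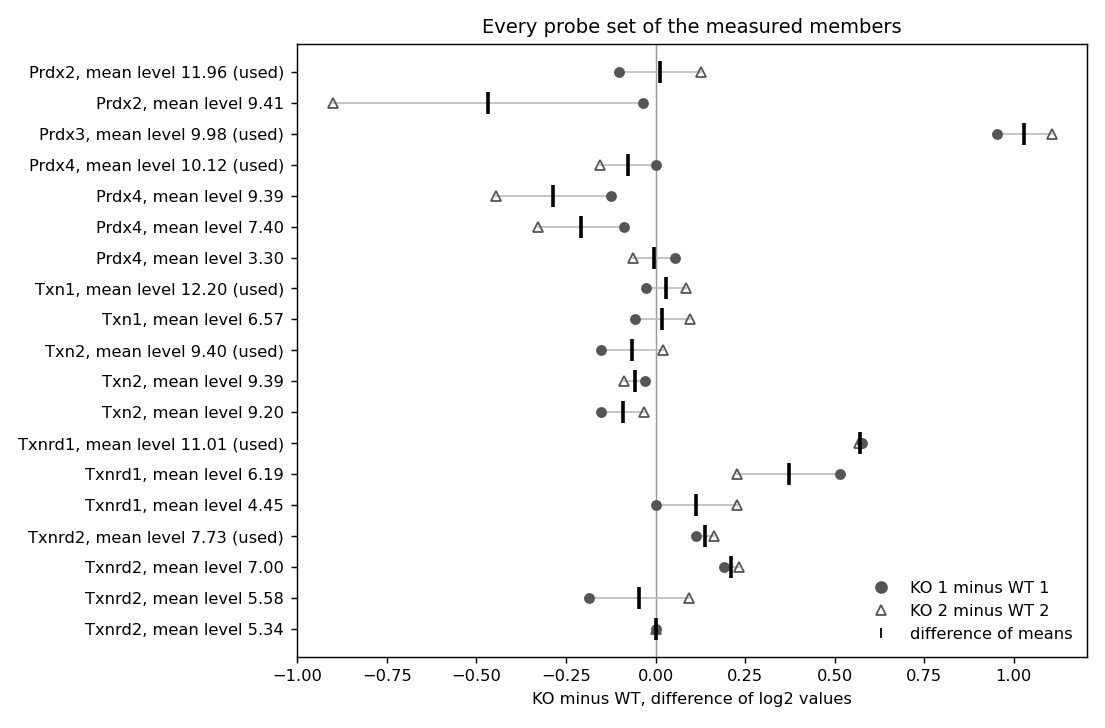
KO minus WT differences of log2 values (horizontal axis) for all 19 probe sets of the 7 measured members, with circles for the arrays numbered 1, triangles for those numbered 2 and bars for the difference of means; labels give each probe set's mean level. Prdx3 (1.03) and the brightest Txnrd1 probe set (0.57) lie farthest right, and the second Prdx2 probe set (-0.47) lies farthest left with its points far apart.

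The members were also counted together by whether their groups separated. Of the 7 measured members, 2 had both KO arrays above both WT arrays, Prdx3 and Txnrd1, and 0 had both below. Over all genes 8.2% had both KO arrays above and 5.7% had both below, shares that became 12% and 12% with quantile normalization again and 10.4% and 9.79% with median centring. Nothing is read from the count of 2, since Prdx3 was chosen for this pattern. Among the other 5 members 0 separated in either direction, where 13.9% of all genes did. With 5 genes this count is close to that share and is not read as a result. Of these 5 members, 3 had a higher and 2 a lower mean in KO cells, and their differences ran from -0.08 to 0.14. Their median difference was 0.01, as was that of all genes (0.0082). At an adjusted p under 0.05, 0 of these 5 passed with limma, against 0.011% of all genes (Xist and Eif2s3y). At an unadjusted p under 0.05, 0 of the 5 passed, against 1.88% of all genes. An exact permutation test of 2 arrays against 2 cannot give a two-sided p below 0.333. When the probe sets of a gene were averaged, Prdx2 and Prdx4 also separated, with both KO arrays below both WT arrays, which brought the count in either direction to 4 of 7, against 18.3% of all genes. With 1 array left out separation is easier: 5 of 7 members separated in either direction without KO 1, where 50.1% of all genes did. It was 4 of 7 without KO 2 (55.1% of all genes), without WT 1 (49%) and without WT 2 (49.3%). Nothing particular to the members is read from these counts. Without any 1 array no gene passed the adjusted threshold.

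**Figure D3:**
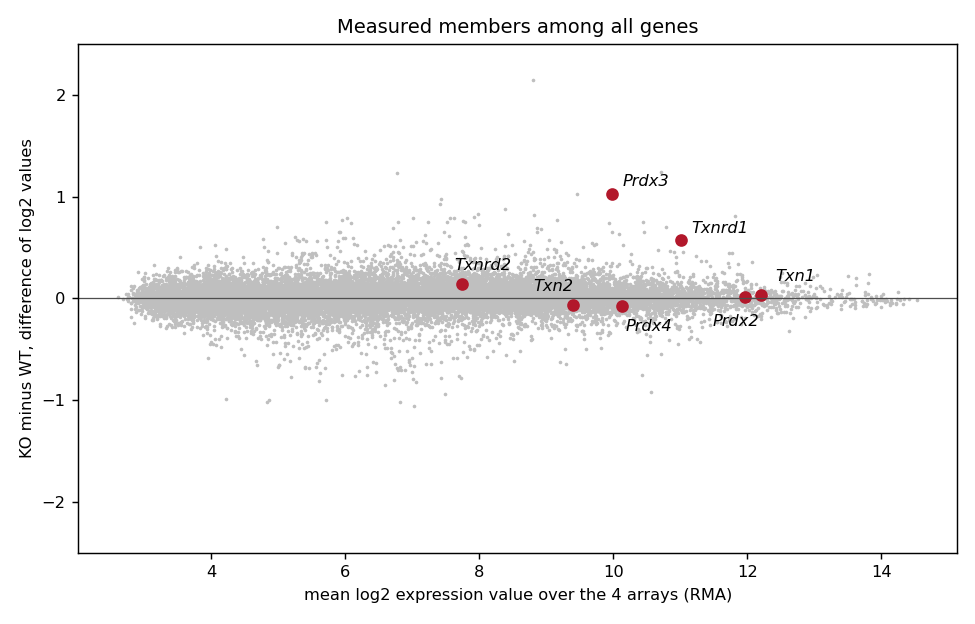
KO minus WT difference of log2 values (vertical axis) against the mean log2 value over the 4 arrays (horizontal axis) for all genes in grey and the 7 measured members in red, with 4 genes beyond the axis limits of 2.5 not drawn. Prdx3 (1.03) and Txnrd1 (0.57) lie above most grey points, with some genes such as Krt1 (1.25) higher still, and the other 5 members lie between -0.08 and 0.14.

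The wider pathway was described by 6 lists of 67 genes, 66 of them measured. With limma 0 of the 66 passed at an adjusted p under 0.05, and 0 did so at the same limit without adjustment. The groups separated with KO above WT for 9 of the 66 and with KO below WT for 5, to be read against the 8.2% and 5.7% of all genes, and the median difference was 0.01. Their differences ran from -0.24 to 0.39. The 0.57 of Txnrd1 was larger, but that gene was named with earlier results of these data known.

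Among 17 genes that act on or through thioredoxin, 12 had a higher mean in KO cells, and 3 separated upward and 1 downward. Counts in this and the later lists are to be read against all genes. Of 18193 genes, 9674 had a higher and 8270 a lower mean in KO cells, and 8.2% separated upward and 5.7% downward. Txnip, the inhibitor that binds thioredoxin, was at 11.10 on KO 1, 10.48 on KO 2, 10.75 on WT 1 and 10.39 on WT 2. The arrays numbered 1 were the higher ones in each group on this probe set, and the difference of 0.23 (SE 0.29) did not pass (limma adjusted p = 1). On the dimmer probe set of Txnip the arrays numbered 2 were the higher ones in each group, and the difference was 0.26 with overlapping groups. Srxn1, sulfiredoxin, which repairs overoxidised peroxiredoxins and is a known NRF2 target, differed by 0.05 (SE 0.06), and its 3 other probe sets by -0.04, -0.16 and -0.10. The members of smallest p were Rrm2b, a ribonucleotide reductase subunit (0.19, SE 0.08), Map3k5, the kinase ASK1 that thioredoxin holds inactive (0.09, SE 0.04), and Msrb2, a mitochondrial methionine sulfoxide reductase (-0.13, SE 0.07). The 4 glutaredoxins, which use glutathione in place of thioredoxin reductase, had overlapping groups, with Glrx at -0.07 (SE 0.05), Glrx3 at -0.16 (SE 0.16) and Glrx2 at 0.03 (SE 0.04; its other probe sets 0.0075 and -0.05).

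The regulators and targets of NRF2 were of interest because Txnrd1 is one of the targets. Of 15 measured genes 8 had a higher and 7 a lower mean in KO cells, with 2 separated upward and 1 downward, and the median was 0.03. Nfe2l2 itself was at 9.70 and 9.59 in KO and 9.66 and 9.58 in WT cells, a difference of 0.03 (SE 0.07) with overlapping groups, and its dimmer probe set differed by -0.07. Keap1, which marks NRF2 for degradation, differed by 0.10 (SE 0.06), and Bach1, a repressor at the same DNA element, by -0.13 (SE 0.09). The cystine transporter Slc7a11 was at 7.75 and 7.65 in KO and 7.63 and 6.996 in WT cells. Its difference of 0.39 (SE 0.26) was the largest of the list, came mostly from WT 2, and did not pass (limma adjusted p = 1). Txnrd1, named with earlier results of these data known, was higher in KO cells by more than any of the 15. That is a description of these arrays and no test of NRF2 activity.

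Other enzymes that remove peroxide or superoxide had a median of -0.03 over 10 genes, with 1 separated in each direction. Sod2, the mitochondrial superoxide dismutase that produces the peroxide on which Prdx3 acts, was at 10.44 and 10.58 in KO and 10.35 and 10.43 in WT cells. Both KO arrays were above both WT arrays by a narrow margin, and the difference of 0.12 (SE 0.08) did not pass (limma adjusted p = 1). Its 3 other probe sets differed by 0.04, 0.17 and 0.08. Gpx8, a peroxidase of the endoplasmic reticulum, differed by -0.17 (SE 0.07) with both KO arrays below the WT arrays, and Sod3, the extracellular superoxide dismutase, differed by -0.24 (SE 0.15).

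Genes that work beside Prdx3 in mitochondria were compared because that compartment is where it acts. Of 6 genes that supply mitochondrial NADPH, 2 had a higher and 4 a lower mean in KO cells. Nnt, the transhydrogenase of the inner membrane, differed by -0.18 (SE 0.11) with both KO arrays below both WT arrays, and its 2 other probe sets by -0.11 and -0.10. Idh2, the mitochondrial isocitrate dehydrogenase, differed by -0.16 (SE 0.16), and Mthfd2, an enzyme of mitochondrial folate metabolism, by 0.06 (SE 0.04). Their second probe sets differed by 0.21 for Idh2, opposite in sign, and 0.27 for Mthfd2, both with the KO arrays above the WT arrays, so no direction is settled for Idh2. The 14 other mitochondrial matrix and import genes lay between -0.07 and 0.09 with a median of 0.01. Vdac1, the outer membrane channel, differed by 0.09 (SE 0.04), the chaperone Hspa9 by 0.08 (SE 0.06) and the import pore gene Tomm40 by -0.07 (SE 0.07). Other probe sets ran from -0.03 to 0.04 for Vdac1 and from -0.04 to 0.11 for Hspa9, so both genes had probe sets of either sign. On their brightest probe sets these 14 genes stayed within 0.09 of no difference in both directions. Prdx3 differed by 1.03, but it was singled out by that difference, so nothing is read from the contrast.

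**Figure D4:**
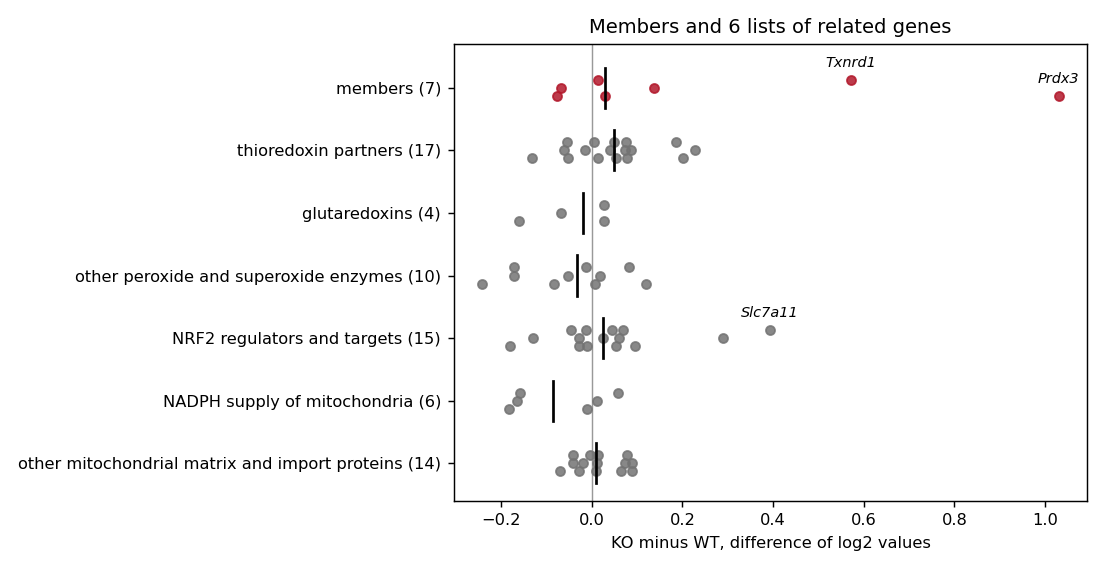
KO minus WT differences of log2 values (horizontal axis) for the 7 measured members in red and for 6 lists of related genes in grey, with the number of genes in brackets and a bar at each median; points are spread vertically only for legibility. Every grey point lies between -0.24 and 0.39, to the left of Txnrd1 (0.57) and Prdx3 (1.03), which were named with earlier results of these data known.

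The genes next to Prdx3 on chromosome 19 were read to see whether the locus as a whole differed. Of the 3 protein-coding neighbours on either side in the RefSeq table, 5 were measured. Sfxn4, the adjacent gene on one side, was at 5.28 and 5.54 in KO and 5.20 on both WT arrays. The next gene, Dennd10, was at 7.78 and 7.74 in KO and 7.68 and 7.30 in WT cells. Both had separate groups with KO above WT, as had 8.2% of all genes. Their differences of 0.21 (SE 0.11) and 0.27 (SE 0.16) did not pass (limma adjusted p = 1 for each). Sfxn4 was below the mean level of 6.88 for the median gene. For Dennd10 the margin was narrow, with 7.74 on KO 2 against 7.68 on WT 1. Nothing about the locus as a whole is read from these separations. Eif3a, a translation initiation factor subunit, differed by -0.09 (SE 0.10). On the other side the receptor kinase gene Grk5 differed by -0.04 (SE 0.39) and the zinc finger gene Zfp950 by -0.62 (SE 0.62), with overlapping groups in both.

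The genes whose pattern over the 4 arrays was nearest to that of Prdx3 were Slc35a1, Aldh3a2 and Mgrn1. Nearness was the Euclidean distance between the 4 values of each gene after its own mean was removed, over 18192 other genes, and with 4 arrays it follows mostly the size of the genotype difference. Slc35a1, the CMP-sialic acid transporter, lay at a distance of 0.20, with 8.85 and 8.78 in KO and 8.10 and 7.77 in WT cells. Aldh3a2, a fatty aldehyde dehydrogenase, lay at 0.25, with 9.24 and 9.22 in KO and 8.58 and 8.23 in WT cells, and Mgrn1, a ubiquitin ligase, at 0.26. Txnrd1 ranked 21 at a distance of 0.47.

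Markers of the cells a sort could hold were read beside these values. Counts of separate groups are to be read against all genes, of which 8.2% separated upward and 5.7% downward. For 9 genes of the differentiated epidermis the median level was 10.30 on KO 1, 10.31 on KO 2, 10.03 on WT 1 and 9.28 on WT 2. 8 of the 9 had a higher mean in KO cells, and 4 separated upward. The differences ran from -0.11 for Ivl to 1.25 for Krt1, with Krt10 at 0.81 and a median of 0.20. For the 8 HFSC genes the median was 10.08 and 9.73 on the KO arrays and 9.94 and 9.92 on the WT arrays, with 3 of the 8 higher in KO cells, all 3 with separate groups. For 8 basal keratinocyte genes the median was 11.95 and 11.71 on the KO arrays and 11.87 and 11.64 on the WT arrays, and 6 of the 8 had a higher mean in KO cells, 3 with separate groups. Dermal fibroblast genes were highest on WT 1, with a median over 12 genes of 10.69, against 9.74 on KO 1, 8.96 on KO 2 and 8.75 on WT 2. All 12 had a lower mean in KO cells with overlapping groups. Endothelial genes had medians of 5.62 to 6.23 per array, and 5 of the 6 were lower in KO cells, 3 with separate groups (Egfl7, -0.28, Kdr, -0.24, and Pecam1, -0.10). Melanocyte genes had medians of 6.78 to 7.34, and 4 of the 6 were lower in KO cells, Mitf (-0.47) with separate groups. Medians were 5.27 to 5.39 for 6 immune genes, of which 3 were higher and 2 lower in KO cells (Cd74, -0.04, with separate groups), and 4.11 to 4.20 for 3 red blood cell genes, of which 2 were higher and 1 lower. The part of cell composition in the differences of Prdx3 and Txnrd1 was not tested, and in bulk RNA more cells of a type and more RNA per cell cannot be told apart.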

How the data were processed

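The deposited table holds log2 expression values of 4 Affymetrix mouse arrays. RMA, in an unstated version, was the authors' method for these log2 values per the submitters' processing notes. It has no detection calls, and at least 2 arrays have equal values in 47.1% of its 45101 probe sets. 34945 probe sets had 1 gene symbol in GEO's platform annotation, 932 had several and 9160 had none here, and 64 Affymetrix controls were left out. Symbols were updated by gene identifier to the GRCm38.p6 RefSeq table (34741 matched). A two-sided comparison of KO against WT was fitted with limma's lmFit and eBayes (limma 3.58.1, R 4.3.3) without covariates over 18193 genes, with Benjamini-Hochberg adjustment and a threshold of 0.05. Differences are log2 values of KO less those of WT, the SE is the moderated one, and intervals are 95%. The fit was run on data simulated with independent noise and known differences, which checked only that the mean estimates lay near those differences. Calls at the threshold were not checked there. The members and all lists were chosen with earlier results of these data known. Named were all members, up to 3 genes of smallest p per pathway list, Txnip, Srxn1, Sod2, Nfe2l2, Keap1 and Nnt, the 3 neighbours on either side of Prdx3 and its 3 nearest profiles. Genes of marker lists named beside these were chosen after their values were seen. Promoters and the microRNA are RefSeq sequences (GRCm38.p6), and target sites of miR-205 were not searched. Alternatives changed the normalization, the filter on dim genes, the probe sets, a replicate block, the variance moderation and each array. The number of arrays limits the precision.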

Additional observations from a re-analysis of the deposited data

How the results depend on the processing

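None of the 5 members beside Prdx3 and Txnrd1 passed the adjusted threshold under any of the 11 alternatives run. Over all genes, 2 passed as reported, 3 with quantile normalization again or median centring, and 0 with the mean of all probe sets, with every probe set by itself, with the replicate block, or without any single array (0 to 0). The array numbers share only a number in the labels; deviations of arrays of one number correlated with r = 0.56 across genes. With 2 arrays a group, leaving out 1 array lets groups separate more easily: the members with separate groups, 2 as reported, were then 4 to 5 of 7, where 49% to 55.1% of all genes separated, and 4 with the mean of all probe sets (18.3% of all genes, against 13.9% as reported). The difference of Prdx3 ran from 0.95 to 1.11 over its alternatives, and that of Txnrd1 from 0.56 to 0.58 without single arrays, 0.35 with the mean of its probe sets and 0.37 with their median. Of the other 5 members, Txn2 without KO 2 (-0.16) and Prdx4 without WT 1 (-0.15) had a limma unadjusted p under 0.05 (0.0226 and 0.03), as had 11.2% and 5.74% of all genes there; the lone array of a group is then assumed to vary like the other group. Small differences changed sign: Prdx2 became -0.23 with the mean or median of its probe sets, and without single arrays it ran from -0.16 to 0.18 (-0.04 without WT 1), Txn1 from -0.0245 to 0.083 and Txn2 from -0.16 to 0.026; the cause was not tested.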

Other observations

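5 probe sets are annotated both to Prdx1, a cytosolic peroxiredoxin, and to Gm21399, a pseudogene related to it, so they were assigned to neither. They were bright, with values from 11.46 to 13.19, and 4 of the 5 differed by 0.0013 to 0.032 between KO and WT cells. The fifth, 1433866_x_at, was at 12.48 on KO 1, 11.95 on KO 2, 12.44 on WT 1 and 12.31 on WT 2, a difference of -0.16. None of the 5 had both KO arrays above both WT arrays. The single RefSeq promoter window of Prdx1 held 1 match to the antioxidant response element core, GCTGAGTCA, 133 bases before the start, which overlaps 1 of its 2 AP-1 matches.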
